A study of Mus musculus with 21 samples.

Results

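The comparison described here asked whether lowering Pds5b had a different effect on gene expression in mouse embryonic stem cells (mESCs) that lack functional PDS5A than in wild-type mESCs. It compared 12 of the 21 poly-A RNA-seq libraries of the study, in 4 groups of 3: WT siGLO, WT siPds5b, Pds5a-KO siGLO and Pds5a-KO siPds5b. All were v6.5 male mESCs grown on gelatin without feeder cells and collected 48 h after transfection with 50 nM siRNA, where siPds5b is a pool directed against the Pds5b transcript and siGLO is a transfection control. The knockout line was 1 CRISPR clone, so the 3 replicates of a genotype are transfected wells of the same cells, the p-values measure the spread between such wells, and an effect of the mutation cannot be told apart from an effect of the clone. The quantity tested for each gene was the difference of differences on the log2 scale, the siPds5b effect in Pds5a-KO (siPds5b minus siGLO) minus the siPds5b effect in WT, which is called the interaction below. A gene was called when edgeR's quasi-likelihood test gave a Benjamini-Hochberg adjusted p under 0.01. The fit held all 21 libraries, so the filter on low counts, the scaling and the estimate of spread also drew on the remaining groups. These were Pds5b-KO siGLO, Pds5a-KO siStag1 and Pds5a-KO siStag2, with 3 libraries each, and they serve as references below.

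PDS5A and PDS5B are HEAT-repeat proteins that bind the cohesin ring in a mutually exclusive way. Cohesin, built on SMC1A, SMC3 and RAD21, extrudes chromatin loops and holds sister chromatids together. PDS5 proteins act with WAPL in releasing the ring and are needed for SMC3 acetylation. Competition with the loader NIPBL was reported in yeast, while the authors saw no increased NIPBL binding to cohesin lacking PDS5 in mESCs. PDS5A and PDS5B are close relatives, so a cell without PDS5A still carries PDS5B, and siPds5b in that cell lowers the only one left.

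The Pds5a mutation was made with 2 guides, which are shown because they fix where the gene is cut. Both match coding exon 2 of the 32 exons of transcript Pds5a-201 on the strand opposite to the gene (GRCm38, plus strand), at chr5:65696769-65696788 with the PAM TGG and at chr5:65696843-65696862 with the PAM AGG.

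Pds5a sgRNA 1: acgtttgatcatttcatcgg

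Pds5a sgRNA 2: ccgcactcacgacgccacag

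An edit in exon 2 need not remove the transcript, and poly-A RNA still carried it. Pds5a had normalized counts of 5256, 4720 and 5200 in WT siGLO and 4786, 3788 and 4239 in Pds5a-KO siGLO, a log2 difference of -0.24 (adjusted p = 0.0415), so the transcript level does not check the genotype labels. Normalized counts are CPM values scaled to the mean library size of 19816922, and they are used for every level given below. The knockdown itself was measured directly. Pds5b stood at 2354, 2019 and 2285 in WT siGLO and at 687, 839 and 802 in WT siPds5b, which leaves 35.0% of the mean. In Pds5a-KO it stood at 2614, 2074 and 2412 with siGLO and at 1073, 901 and 736 with siPds5b, which leaves 38.2%. The treated libraries lay below all control libraries in both genotypes, and the depth of the knockdown did not differ beyond its error (interaction 0.13 ± 0.16 SE, adjusted p = 0.737, 95% interval -0.20 to 0.46).

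The 12 libraries held 17434084 to 23989198 counts over 23412 genes, and 14963 genes passed the filter on low counts. Both Pds5a-KO libraries numbered 1 stood apart from numbers 2 and 3. The keratin Krt8 was at 6091 and 6596 in them and between 17193 and 18271 in the other 4 Pds5a-KO libraries, against 1654 to 1831 in WT, and 421 genes differed by more than 1 on the log2 scale between number 1 and the mean of numbers 2 and 3 in Pds5a-KO. None of the 291 of these genes whose libraries did not overlap was called for the interaction, against 1.48% over all genes. Such a spread within both groups makes a call unlikely, so this count says little about the weight of these libraries. The summed normalized count of 10 embryonic stem cell markers (Pou5f1, Sox2, Nanog and others) was 149545 to 163959 in the WT libraries, 124341 to 141214 in Pds5a-KO siGLO and 110588 to 122957 in Pds5a-KO siPds5b. The 20 trophoblast genes summed to 6373 to 6806 in WT and to 17206 to 42100 in Pds5a-KO, while the 15 fibroblast markers, whose ranges overlapped between all 4 groups, summed to 1457 to 3350. The part of these shifts in the results below was not tested.

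siPds5b changed many transcripts in Pds5a-KO cells and almost none in WT. In Pds5a-KO, 599 genes were higher (4.0% of those tested) and 537 were lower (3.59%). In WT, the 1 called gene was Pds5b itself (0.00668%), with 631 genes at an unadjusted p under 0.05. DESeq2 called 5 genes in WT. The interaction was called for 222 genes (1.48%), of which 88 were positive (0.588%) and 134 negative (0.896%), and 2589 genes had an unadjusted p under 0.05. Replicates with the same number within a genotype deviated together, and with that number as a block within each genotype the interaction was called for 704 genes, including all 222. Without both Pds5a-KO libraries numbered 1, 132 genes were called, 120 of them among the 222.

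Of the 1136 genes that siPds5b moved in Pds5a-KO, 216 were also called for the interaction. The other 920 were not shown to respond differently in the 2 genotypes, although 778 of them had an unadjusted interaction p under 0.05. The interaction needs 4 group means and carried a median standard error of 0.18 on the log2 scale over all genes, against 0.13 for the effect in either genotype alone.

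The called genes moved mainly in the knockout. The 88 positive genes had a median effect of 1.40 in Pds5a-KO and -0.01 in WT, and the 134 negative genes had medians of -0.80 and 0.03. Over all tested genes the median interaction was 0.0022. These medians describe genes chosen on the same values and are no test. For all 222 genes the 3 siPds5b libraries did not overlap the 3 siGLO libraries in Pds5a-KO. The interaction contains this difference, so choosing genes on it favours such a separation, which is no test either. In WT, 14 of the positive and 21 of the negative genes had an unadjusted p under 0.05, against 631 of all 14963 tested genes. The WT effect had the opposite sign to that in Pds5a-KO in 11 of the 14 and 13 of the 21. The interaction subtracts the WT effect, so choosing genes on it favours opposite signs, and these counts are no test.

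**Figure D1:**
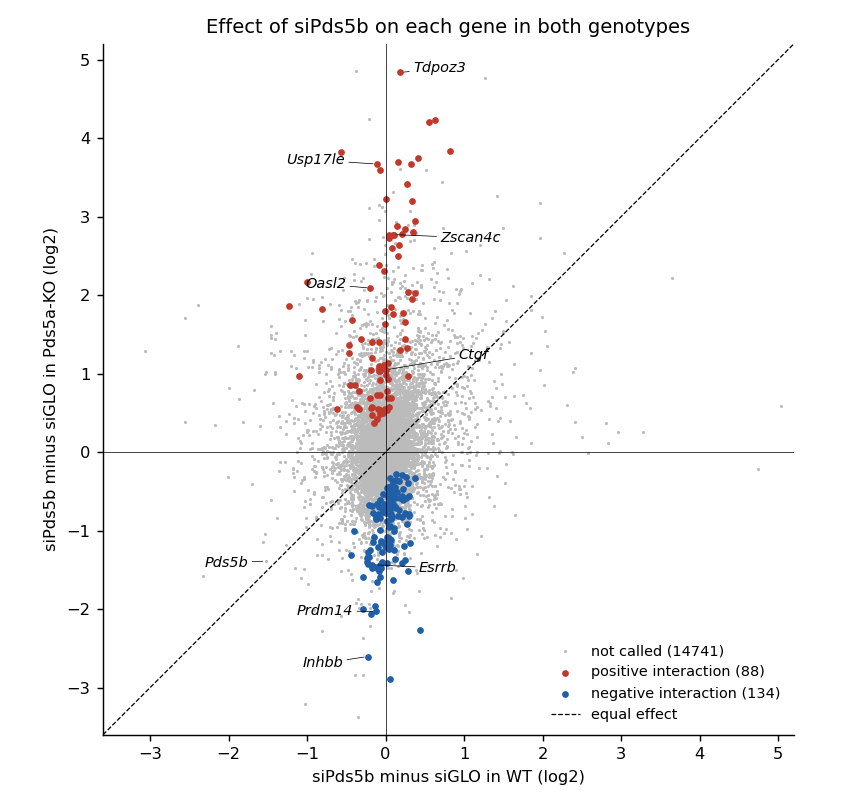
Each point is 1 of the tested genes, with the siPds5b effect in WT on the x axis and in Pds5a-KO on the y axis (log2, siPds5b minus siGLO), and the dashed line marks equal effects. The 88 positive and 134 negative genes lie along the vertical axis, far from the dashed line, while Pds5b, lowered to a similar share in both genotypes, lies near it; 5 genes, none of them called, fall outside the plotted range.

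The largest positive interactions belonged to genes of the two-cell-like state, a transient condition of a few cells in an mESC culture that switches on transcripts of the embryo's first genome activation. The list of two-cell-like genes held 12 positive and no negative calls among 23 tested members, against 0.588% positive over all genes. siPds5b raised 21 of the 23 in Pds5a-KO, against 4.0% over all genes, and moved none past the threshold in WT. The median over the list was 2.77 in Pds5a-KO, 0.12 in WT and 2.69 for the interaction. In bulk libraries more cells in such a state and more RNA in each cell cannot be told apart. Leaving out 1 library at a time gave 9 to 15 positive members, and leaving out both Pds5a-KO libraries numbered 1 gave 7, with siPds5b still raising 16 in Pds5a-KO.

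Zscan4c, which encodes a zinc finger and SCAN domain protein that marks the state and acts in telomere maintenance, had normalized counts of 718, 486 and 635 in WT siGLO and 848, 506 and 616 in WT siPds5b. It stood at 96.5, 70.1 and 52.0 in Pds5a-KO siGLO and at 601, 546 and 343 in Pds5a-KO siPds5b. The control-treated knockout libraries were thus far below every other library, and those with siPds5b reached the WT range or fell short of it. The interaction was 2.67 ± 0.44 SE (adjusted p = 0.00213), and the 95% interval of the effect in WT ran from -0.50 to 0.69. Zscan4d, Zscan4e and Zscan4f were called as well (2.73, 2.72 and 2.69). Zscan4a and Zscan4b had interactions of 2.18 and 2.06 that missed the threshold (adjusted p = 0.0166 and 0.017). Without both Pds5a-KO libraries numbered 1, Zscan4c stayed called (adjusted p = 0.00816) and Zscan4d, Zscan4e and Zscan4f did not (adjusted p = 0.016, 0.0154 and 0.0234).

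The 4 called Zscan4 genes lie in 1 array on chromosome 7, and stretches upstream of 3 of them are shown because genes that moved together carry nearly the same sequence there. They come from RefSeq promoters (GRCm38.p6), cover 216 bases each and are given 5′ to 3′ on the gene's strand. Those of Zscan4c (chr7:11005506-11005721, plus strand, -239 to -24 from the start), Zscan4d (chr7:11166183-11166398, minus strand, -250 to -35) and Zscan4f (chr7:11397699-11397914, plus strand, -216 to -1) differ at 7 positions, in capitals. Zscan4d matches Zscan4c at 210 and Zscan4f matches it at 215 of the 216 bases.

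Zscan4c: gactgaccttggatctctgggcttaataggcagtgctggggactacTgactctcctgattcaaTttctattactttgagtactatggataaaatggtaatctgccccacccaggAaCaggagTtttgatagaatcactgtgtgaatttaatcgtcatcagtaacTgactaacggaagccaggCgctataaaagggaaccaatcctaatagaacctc

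Zscan4d: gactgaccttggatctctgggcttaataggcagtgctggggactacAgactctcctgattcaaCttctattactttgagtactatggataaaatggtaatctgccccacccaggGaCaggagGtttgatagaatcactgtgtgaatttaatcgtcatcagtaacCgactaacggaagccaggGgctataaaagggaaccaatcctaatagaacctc

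Zscan4f: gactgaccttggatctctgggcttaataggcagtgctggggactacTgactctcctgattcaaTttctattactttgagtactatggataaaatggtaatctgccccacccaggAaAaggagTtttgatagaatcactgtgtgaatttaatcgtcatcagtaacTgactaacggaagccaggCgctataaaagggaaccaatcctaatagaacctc

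The transcripts, from which the reads come, are alike too. Of the 150-base words in annotated Zscan4c transcripts, 61% also occur in other genes, and the share was 13.0% for Zscan4d, 75.0% for Zscan4e and 77.4% for Zscan4f. How the counting assigned reads that fit several genes is not given in the sources used here, so values of single members of these families are uncertain. The share was 29.4% for Usp17lc, 36.1% for Usp17ld, 40.3% for Gm5662, 43.7% for Gm2016 and 33.4% for Tdpoz3, and the same holds for these genes.

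Usp17le, whose transcripts share 0.754% of their words with other genes, does not carry that limit. It encodes a deubiquitinase of the Usp17-like family and had 165, 113 and 141 normalized counts in WT siGLO, 175, 105 and 108 in WT siPds5b, 15.2, 22.4 and 21.2 in Pds5a-KO siGLO and 345, 277 and 134 in Pds5a-KO siPds5b. Of the treated knockout libraries, 2 exceeded every WT library and 1 lay within the WT range. The interaction was 3.78 ± 0.46 SE (adjusted p = 5.34e-05). All of Usp17la, Usp17lb, Usp17lc and Usp17ld were called too, with interactions of 2.86, 3.14, 3.66 and 3.33.

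Gm5662, an eIF1A-related gene of the same state, had 354, 238 and 271 in WT siGLO, 380, 251 and 341 in WT siPds5b, 48.8, 41.2 and 39.5 in Pds5a-KO siGLO and 311, 302 and 192 in Pds5a-KO siPds5b, again a low knockout control, with 2 treated knockout libraries in the WT range and 1 below it (2.47 ± 0.33 SE, adjusted p = 8.03e-05). Tdpoz3, a speckle-type BTB gene, showed the same order at few counts. It had 24.1, 19 and 20.7 in WT siGLO, 2.03, 0.935 and 0 in Pds5a-KO siGLO and 37.3, 36.3 and 19.9 in Pds5a-KO siPds5b, so that its fitted interaction of 4.65 ± 0.77 SE, the largest of all, depends on how near-zero counts are treated. The zinc finger gene Zfp352 was called at 3.66 ± 0.80 SE (adjusted p = 0.00846), with 0 to 2.03 in Pds5a-KO siGLO. Usp17ld and Zfp352 lost their calls without both Pds5a-KO libraries numbered 1 (adjusted p = 0.0582 and 0.0401). Dppa2 and Dppa4, activators of the programme upstream of these genes, did not pass the test for the interaction (0.41 and -0.21).

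Of the 88 positive genes, 20 lay in 4 gene arrays. In windows drawn after the values were seen (GRCm38), 4 of 4 tested genes were positive at chr7:11005745-11402318 (Zscan4c to Zscan4f), and 7 of 11 were positive at chr7:103249737-104862667 (Usp17la to Usp17le, Trim12a and Trim30a, but not Trim12c, Trim34a, Trim34b and Trim6). A further 5 of 8 were positive at chr12:87514316-88324026 (Gm8300, Gm2016, Gm2022, Gm5662 and Gm5039), and 4 of 4 at chr4:143551700-143900380 (BC080695, Gm13083, Gm13078 and Pramef6). No gene in these windows was negative. The edges of each window were set at positive genes, which favours high shares, so these counts are no test. Zscan4a (chr7:10794242-10799057) and Zscan4b (chr7:10900740-10905050), which missed the threshold, lie outside the edge of the first window. Gm2016 (2.66), Gm2022 (2.58), Gm13078 (2.61) and, on chromosome 6, Gm8994 (2.57) were among the 12 largest positive interactions at a mean log2 CPM of at least 1.

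Other siRNAs in the same knockout did not raise these genes to that level. Zscan4c was at 42.6, 95.6 and 76.7 with siStag1 and at 61.5, 87.1 and 38.8 with siStag2, which target the cohesin subunits STAG1 and STAG2, and so lay in the range of the siGLO libraries of the knockout or somewhat below it. In mESCs with a Pds5b knockout and intact Pds5a it was at 387, 243 and 264, below all 3 WT siGLO libraries.

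Positive interactions also reached genes known to respond to interferon. Of the list of 23 interferon-stimulated genes, 1 was positive and none negative, against 0.588% positive over all genes, with a median interaction of 0.35. siPds5b raised 4 members in Pds5a-KO, against 4.0% over all genes, and none in WT. With the replicate block within each genotype, a fit that called more genes in general, 5 were positive and 1 negative. Leaving out 1 library at a time gave 1 to 4 positive members, with 4 without WT siGLO 1 and 2 without WT siPds5b 2, WT siPds5b 3 or Pds5a-KO siGLO 2. The called member was Oasl2, a 2′-5′ oligoadenylate synthetase-like antiviral gene. It had 92.8, 238 and 216 in WT siGLO, 93.7, 221 and 162 in WT siPds5b, 221, 224 and 222 in Pds5a-KO siGLO and 893, 941 and 1010 in Pds5a-KO siPds5b. Unlike the two-cell-like genes, Oasl2 started from the WT range in the knockout and rose above every other library (2.28 ± 0.36 SE, adjusted p = 0.00122). It lost its call when only the 12 libraries of the 4 groups were fitted.

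A further 8 positive genes with known interferon links were noticed after their values were seen and are no list. Tgtp1, an interferon-inducible GTPase, went from 34.5, 28.1 and 28.9 to 135, 183 and 135 in Pds5a-KO, with 10.2 to 36.8 over the 6 WT libraries (interaction 2.33 ± 0.44 SE). Cd274, the immune checkpoint ligand PD-L1, went from 32.5, 36.5 and 54.0 to 104, 118 and 173 (2.10 ± 0.41 SE). Zbp1, a sensor of Z-form nucleic acid, went from 113, 118 and 99.3 to 266, 252 and 334 (1.84 ± 0.34 SE). In each, the treated knockout libraries lay above all libraries of the other 3 groups. The guanylate-binding protein gene Gbp4 (1.81), Slfn9 (1.36), Trim12a (1.14) and the ADP-ribosyltransferase gene Parp14 (0.99) had smaller interactions. Trim30a had one of 3.22 ± 0.72 SE at an adjusted p of 0.00995, next to the threshold, and unlike the others its knockout control (5.08, 0.935 and 6.75) lay below WT siGLO (9.45, 28.2 and 24).

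The interferon-stimulated response element is the binding motif of the interferon-activated factor ISGF3 and of interferon regulatory factors. It was 1 of 6 motifs searched, written as a pair of GAAA half-sites with 2 bases of any kind between them, on both strands of RefSeq promoters from 250 bases before to 50 after the start. Overlap with the other motifs was not examined. It occurred in 3.99% of 27025 promoter symbols and in 3.46% of the tested genes that had one, in 6 of 55 positive (10.9%) and in 5 of 102 negative genes (4.9%). Other motifs were also more frequent in the positive genes than in the tested ones. The TATA box, TATAAAA, occurred in 8 of 55 (14.5%) against 3.03%, and the ESRRB motif, AAGGTCA with a C before it, in 3 of 55 (5.45%) against 1.34%, so the higher share was not particular to the interferon motif. Stretches of 50 bases with the match in capitals are shown for the 4 interferon-linked genes that held one, on the gene's strand (GRCm38.p6): Tgtp1 at chr11:48992294-48992343, Slfn9 at chr11:82991846-82991895, Trim30a at chr7:104465200-104465249 and Trim12a at chr7:104315456-104315505, all on the minus strand.

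Tgtp1: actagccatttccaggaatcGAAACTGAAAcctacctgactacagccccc

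Slfn9: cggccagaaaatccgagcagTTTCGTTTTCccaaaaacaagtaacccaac

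Trim30a: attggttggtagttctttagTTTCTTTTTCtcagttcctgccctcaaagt

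Trim12a: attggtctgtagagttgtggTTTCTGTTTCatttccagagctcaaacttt

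In the last 3 the motif lies on the opposite strand. The promoters of Oasl2 and Cd274 held no match in this window, and Gbp4, Zbp1 and Parp14 had no entry. A match describes the letters only.

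The remaining positive genes were of mixed function. Ctgf, which encodes a secreted matricellular protein and is a target of the YAP coactivator, had 562, 471 and 460 in WT siGLO, 552, 439 and 509 in WT siPds5b, 1761, 1809 and 1677 in Pds5a-KO siGLO and 3932, 3742 and 3182 in Pds5a-KO siPds5b. It was already above WT in the knockout and rose further (1.04 ± 0.14 SE, adjusted p = 8.03e-05), with a 95% interval of -0.21 to 0.22 for the effect in WT. It was the 1 called gene among 28 muscle actin and SRF target genes, whose median interaction was 0.20. Gja1, which encodes a gap junction connexin and was chosen after its values were seen, rose in Pds5a-KO from 6945, 6437 and 5773 to 12353, 10493 and 9904 (0.76 ± 0.16 SE), against 3203 to 4430 in WT. Sepp1, the selenium carrier selenoprotein P, rose in Pds5a-KO from 436, 319 and 279 to 1224, 1106 and 878, against 244 to 318 over the WT libraries (1.64 ± 0.21 SE). Lonrf3, a RING finger gene, had 76.2, 61.7 and 77.1 in Pds5a-KO siGLO and 186, 183 and 198 with siPds5b, against 133 to 165 in WT, and so crossed from below to above WT (1.57 ± 0.21 SE). Pmaip1, the BH3-only apoptosis gene NOXA and a p53 target, moved by 0.98 in Pds5a-KO and by 0.29 in WT (interaction 0.69 ± 0.14 SE, adjusted p = 0.00551). It was the 1 called gene among 27 p53 targets and among 26 apoptosis genes, and it lost its call without both Pds5a-KO libraries numbered 1 (adjusted p = 0.0353).

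Calcr, the calcitonin receptor, went from 17.3, 18.7 and 13.5 to 79.0, 67.4 and 76.7 in Pds5a-KO and from 27.5, 45.1 and 43.8 to 25.5, 12.3 and 19.5 in WT, 2 groups that did not overlap in either genotype (interaction 3.17 ± 0.44 SE). The WT effect did not pass the threshold after adjustment. Calcr was chosen after its values were seen.

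**Figure D2:**
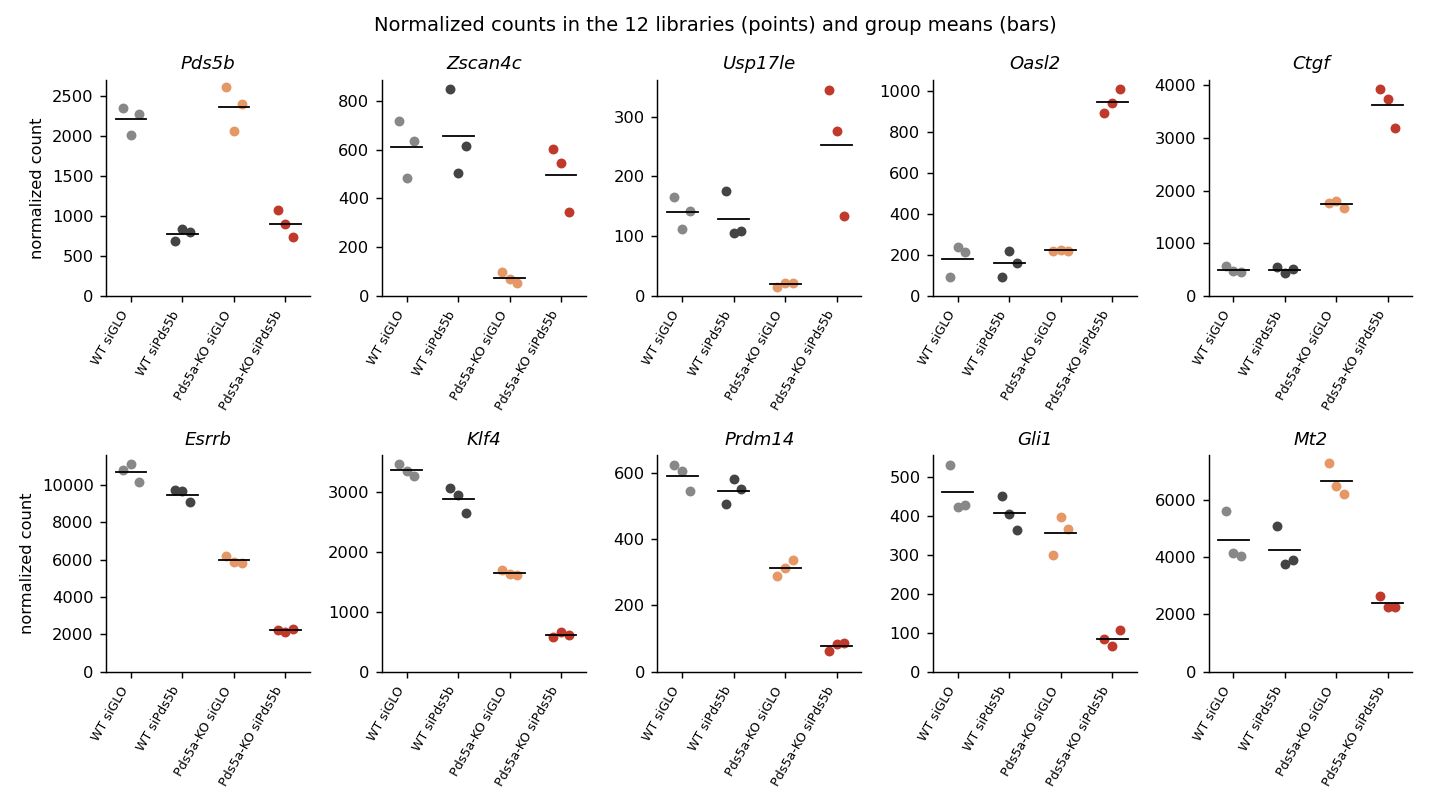
Normalized counts of 10 genes in the 12 libraries, with 1 point for each of the 3 libraries of a group and a bar at the group mean. In the treated knockout Zscan4c and Usp17le rose from a low level, Oasl2 rose from the WT level and Ctgf from a raised level, while Esrrb, Klf4, Prdm14, Gli1 and Mt2 fell below all other libraries shown.

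The negative genes were led by factors of naive pluripotency, the ground state of the early epiblast in which these transcription factors hold one another's expression. Of 18 naive pluripotency factors, 7 were negative and none positive, against 0.896% negative over all genes. The median over the list was -1.02 in Pds5a-KO, 0.03 in WT and -0.86 for the interaction. siPds5b lowered 13 of the 18 in Pds5a-KO, against 3.59% over all genes, and none in WT. DESeq2 called 12 of the 18 for the interaction, and the replicate block within each genotype called 14. Both of these fits also made more negative calls over all genes than the main fit. The count of 7 in the main fit stayed between 6 and 8 when 1 library at a time was left out, and was 7 without both Pds5a-KO libraries numbered 1.

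Esrrb, an orphan nuclear receptor of the naive network, had 10816, 11120 and 10154 normalized counts in WT siGLO, 9717, 9643 and 9077 in WT siPds5b, 6206, 5881 and 5824 in Pds5a-KO siGLO and 2245, 2104 and 2282 in Pds5a-KO siPds5b. The 4 groups did not overlap and stepped down in that order. The step with siPds5b was -1.43 ± 0.08 SE in Pds5a-KO and -0.17 ± 0.08 SE in WT, with a 95% interval in WT of -0.33 to -0.01. The interaction was -1.26 ± 0.11 SE (adjusted p = 2.75e-07).

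Klf4, a Krüppel-like factor and target of LIF signalling, followed the same order. It had 3472, 3358 and 3269 in WT siGLO, 3065, 2959 and 2649 in WT siPds5b, 1707, 1626 and 1622 in Pds5a-KO siGLO and 573, 657 and 617 in Pds5a-KO siPds5b (interaction -1.21 ± 0.11 SE, adjusted p = 3.99e-07). Klf4 was also the 1 called gene among 19 of the LIF and STAT3 pathway. Prdm14, a repressor of lineage and DNA methyltransferase genes, fell in Pds5a-KO from 289, 312 and 336 to 62.2, 82.9 and 85.7, with 505 to 625 over the WT libraries (-1.91 ± 0.24 SE, adjusted p = 4.47e-05).

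Nr0b1, the X-linked gene of the corepressor DAX1, differed in that its knockout control was near WT. It had 2332, 1878 and 2008 in WT siGLO, 3212, 2130 and 2253 in WT siPds5b, 1998, 1689 and 1414 in Pds5a-KO siGLO and 626, 629 and 531 in Pds5a-KO siPds5b (-1.80 ± 0.21 SE, adjusted p = 5.85e-05). Zfp42, the gene of REX1 (-1.14 ± 0.14 SE), Nr5a2, a nuclear receptor (-1.11 ± 0.15 SE), and Tcl1, an AKT coactivator (-0.94 ± 0.20 SE, adjusted p = 0.00843), completed the 7. Tcl1 lost its call without both Pds5a-KO libraries numbered 1 (adjusted p = 0.0484).

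Other members lay just outside the threshold. Nanog, the homeobox factor at the centre of the network, had 5658, 6471 and 6691 in Pds5a-KO siGLO, 2602, 3594 and 3515 in Pds5a-KO siPds5b, and 8698 to 10935 over the WT libraries (-0.81 ± 0.18 SE, adjusted p = 0.0128). Tfcp2l1, Klf2 and Tbx3 had interactions of -0.98, -0.80 and -0.90 at adjusted p = 0.0388, 0.042 and 0.0279. Dppa3 (-0.42, adjusted p = 0.565) had the opposite baseline, with 888, 1343 and 986 in Pds5a-KO siGLO against 156, 220 and 156 in WT siGLO.

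Factors shared by naive and primed cells held fewer calls, a difference between lists that was not tested. Of 19 general pluripotency factors 2 were negative, with a median interaction of -0.04. The replicate block within each genotype, which made more calls over all genes, gave 5 negative and 1 positive. Sox2, the HMG-box partner of OCT4, had 8262, 8384 and 7562 in WT siGLO, 8453, 8336 and 7488 in WT siPds5b, 8656, 7375 and 7400 in Pds5a-KO siGLO and 5006, 4355 and 4601 in Pds5a-KO siPds5b. The other 3 groups overlapped, and the treated knockout lay below them (-0.75 ± 0.10 SE, adjusted p = 8.03e-05, WT interval -0.14 to 0.15). Mybl2, a cell cycle transcription factor, was negative at -0.57 ± 0.12 SE and lost its call without both Pds5a-KO libraries numbered 1 (adjusted p = 0.0365). Pou5f1, the gene of OCT4, had 24646, 22810 and 21235 in Pds5a-KO siGLO and 19426, 17768 and 17832 with siPds5b, an interaction of -0.41 ± 0.12 SE that did not pass (adjusted p = 0.0461). Among 19 genes of formative and primed pluripotency none was called, with a median of 0.27. The block within each genotype, again with more calls over all genes, gave 6 positive.

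**Figure D3:**
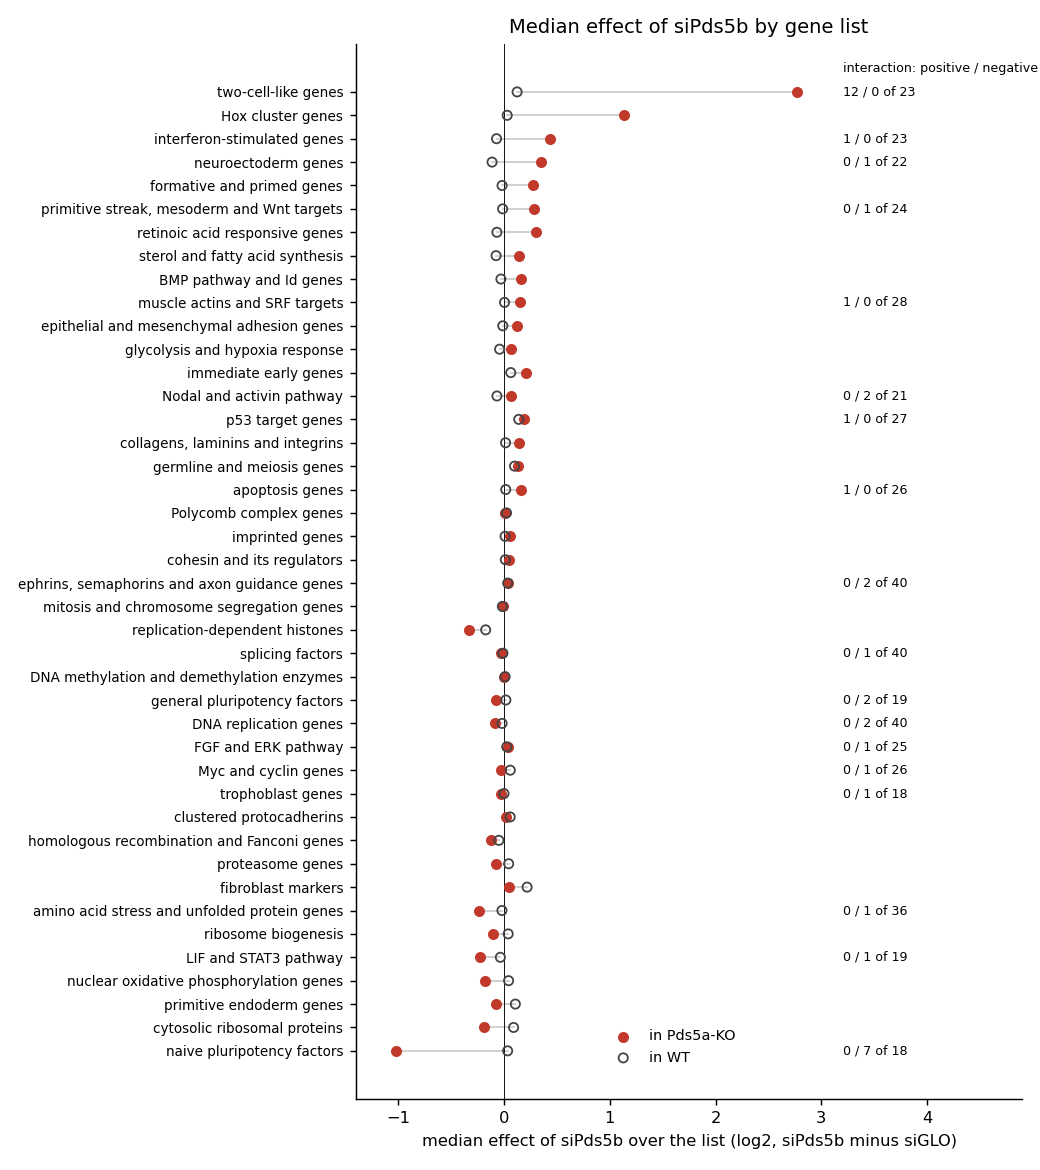
For 42 gene lists with at least 10 tested members, the median siPds5b effect over the list in Pds5a-KO (filled) and in WT (open), in log2 units and ordered by the median interaction, with the number of positive and negative calls at the right where there were any. The two-cell-like list (12 positive of 23) and the naive pluripotency list (7 negative of 18) lie at the ends, and the WT medians of the lists stay between -0.17 and 0.22.

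Several signalling genes were negative. Gli1 and Gli2 are the transcriptional effectors of Hedgehog signalling, and Gas1 is a co-receptor of the pathway. Gli1 had 531, 422 and 427 in WT siGLO, 451, 403 and 364 in WT siPds5b, 300, 397 and 366 in Pds5a-KO siGLO and 82.6, 65.3 and 106 in Pds5a-KO siPds5b, so that the treated knockout libraries alone left the range of the rest (-1.89 ± 0.22 SE, adjusted p = 2.35e-05). Gli2 fell in Pds5a-KO from 657, 724 and 757 to 233, 261 and 274 (-1.42 ± 0.20 SE). Gas1 went the other way (1.10 ± 0.24 SE). Ptch1, a receptor and pathway target, and the transducer Smo had interactions of 0.02 and -0.07 that did not pass. These genes other than Gli1 were chosen after their values were seen.

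In the Nodal and activin pathway 2 of 21 genes were negative, with a median interaction of 0.13. Inhbb, the activin B subunit, stood at 1468, 822 and 904 in WT siGLO, 1260, 699 and 770 in WT siPds5b, 310, 318 and 334 in Pds5a-KO siGLO and 53.3, 61.2 and 43.9 in Pds5a-KO siPds5b (-2.38 ± 0.36 SE, adjusted p = 0.000849, and 0.0141 without both Pds5a-KO libraries numbered 1). Pcsk6, a proprotein convertase that cleaves Nodal, was the other (-0.72 ± 0.15 SE, adjusted p = 0.00551, and 0.0261 without them). Fgf17 was the 1 called ligand or effector among 25 FGF and ERK pathway genes, falling in Pds5a-KO from 412, 539 and 448 to 101, 127 and 124 (-1.70 ± 0.19 SE). Notum, a secreted Wnt deacylase, was the 1 called among 24 primitive streak, mesoderm and Wnt target genes (-1.46 ± 0.21 SE), a list whose median, 0.23, had the opposite sign. In WT, Notum went from 397, 348 and 356 to 547, 416 and 404, and in Pds5a-KO from 250, 217 and 218 to 120, 91.2 and 95.7.

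The neighbouring metallothionein genes Mt1 and Mt2, which bind zinc and copper, were higher than WT in the control knockout and lower than WT with siPds5b. Mt2 had 5596, 4136 and 4021 in WT siGLO, 5074, 3738 and 3910 in WT siPds5b, 7288, 6490 and 6200 in Pds5a-KO siGLO and 2645, 2271 and 2249 in Pds5a-KO siPds5b (-1.37 ± 0.18 SE). Mt1 had 2951, 2657 and 2558 in WT siGLO and 2001, 1988 and 2043 in WT siPds5b, an effect of -0.44 in WT that did not pass edgeR's test (adjusted p = 0.739) and was called by DESeq2 (adjusted p = 0.000718), and went from 3975, 3923 and 4178 to 1810, 1538 and 1520 in Pds5a-KO (-0.87 ± 0.17 SE).

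The smallest p of all interactions belonged to Sept1, a septin GTPase gene, with 3136, 2630 and 2732 in WT siGLO, 3474, 2825 and 2950 in WT siPds5b, 1439, 1445 and 1313 in Pds5a-KO siGLO and 536, 530 and 574 in Pds5a-KO siPds5b (-1.48 ± 0.12 SE, adjusted p = 1.4e-07). The knockout was lower than WT with either siRNA, and siPds5b lowered it further. Adap1, an ARF GTPase-activating protein gene, instead overlapped WT in the control knockout (610, 644 and 724 against 567 to 767 over the WT libraries) and went to 209, 203 and 244 with siPds5b (-1.52 ± 0.17 SE). 8430410A17Rik, an older symbol of Hmces, whose protein binds abasic sites in DNA, also overlapped WT in the control knockout, with 2308, 1854 and 1824 in Pds5a-KO siGLO, 812, 721 and 709 in Pds5a-KO siPds5b and 1751 to 2555 in WT (-1.62 ± 0.17 SE). Among the largest negative interactions were also the kinase gene Sgk2 (-2.71), Accsl (-1.83), Gm7325 (-1.73), which encodes the fusion protein myomixer, the G protein subunit gene Gna14 (-1.62) and Lrrc34 (-1.54). Tdh, threonine dehydrogenase, on which the one-carbon metabolism of mESCs depends, fell in Pds5a-KO from 4754, 4587 and 4458 to 1730, 1934 and 1799 (-1.13 ± 0.15 SE), against 6259 to 9546 in WT.

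Growth and cell cycle lists held 2 calls at most, against 0.896% negative over all genes. Mitosis and chromosome segregation genes (40 tested), homologous recombination and Fanconi genes (33) and ribosome biogenesis genes (31) held none. Ccnd3, cyclin D3, had 4946, 5112 and 4643 in WT siGLO, 4031, 3682 and 3446 in WT siPds5b, 3887, 3995 and 3896 in Pds5a-KO siGLO and 1897, 1893 and 2090 in Pds5a-KO siPds5b, with no overlap between siRNAs in either genotype. The effect was -1.0 in Pds5a-KO and -0.40 in WT, where it missed the threshold (adjusted p = 0.026) but passed with the replicate block within each genotype (adjusted p = 0.0011) and by DESeq2 (adjusted p = 0.000393), and the interaction was -0.60 ± 0.10 SE, called for 1 of 26 Myc and cyclin genes. Asns, asparagine synthetase, was 1 negative of 36 amino acid stress and unfolded protein genes (-0.62 ± 0.10 SE). Rrm2, a ribonucleotide reductase subunit (-0.46 ± 0.10 SE), and Rfc4, a clamp loader subunit (-0.62 ± 0.13 SE, adjusted p = 0.0203 without both Pds5a-KO libraries numbered 1), were 2 of 40 DNA replication genes. U2af1 was 1 of 40 splicing factors (-0.48 ± 0.10 SE, adjusted p = 0.0353 without them).

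Lineage lists held few calls. Olig2, a bHLH factor of ventral neural progenitors, was the 1 called among 22 neuroectoderm genes (-1.38 ± 0.23 SE). It fell in Pds5a-KO from 664, 528 and 476 to 246, 222 and 145. The list as a whole did not follow it. Its median interaction, 0.35, had the opposite sign, with 14 members positive and 8 negative in sign. Tfap2c was the 1 called among 18 trophoblast genes (-0.93 ± 0.19 SE). The axon guidance receptor Epha4 (-1.08 ± 0.19 SE) and the guidance cue Ntn1 (-1.12 ± 0.23 SE, adjusted p = 0.0241 without both Pds5a-KO libraries numbered 1) were 2 of 40 ephrin, semaphorin and guidance genes. Of 22 Hox genes none was called, with a median interaction of 1.06, and siPds5b raised 7 of them in Pds5a-KO, against 4.0% over all genes. Hoxb1, for example, had 5.08, 3.74 and 1.93 in Pds5a-KO siGLO and 12.4, 41.5 and 41.9 with siPds5b (adjusted p = 0.0298).

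Cohesin itself was not among the called genes. None of 21 tested cohesin subunits and regulators passed the test for the interaction, with a median of 0.04, and siPds5b lowered 2 of them in Pds5a-KO and 1, Pds5b, in WT. Stag2 had the interaction 0.30 ± 0.14 SE (adjusted p = 0.268), Smc3 0.11 ± 0.10 SE, Rad21 -0.08 ± 0.09 SE and Nipbl 0.18 ± 0.15 SE. Ribosomal protein genes (75 tested, median -0.28), oxidative phosphorylation genes (41, median -0.19), proteasome genes (28, median -0.12), clustered protocadherins (24, median -0.07) and Polycomb genes (31, median 0.08) held no call either.

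The called genes also differed in where the knockout stood before siPds5b was added. With siGLO, 29 of the 88 positive genes did not differ between Pds5a-KO and WT at an unadjusted p under 0.05. A further 21 were already displaced in the direction in which siPds5b moved them. The other 38 were displaced the other way, so that siPds5b moved them in the direction of WT. Among the 134 negative genes the numbers were 46, 69 and 19. The classes were set by direction only and not by distance, so siPds5b could carry a gene past WT. Lonrf3 and Mt2, for example, crossed it. The baseline difference and the siPds5b effect in the knockout share the Pds5a-KO siGLO libraries, so these counts are a description with no test. Zscan4c was among those moved in the direction of WT and ended nearer to it, with a knockout difference of -3.08 with siGLO and -0.40 with siPds5b. Ctgf (1.81 to 2.85), Esrrb (-0.84 to -2.10) and Inhbb (-1.73 to -4.11) moved further away, and Sox2 (-0.05 to -0.80) and Oasl2 (0.30 to 2.58) left a position near WT.

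**Figure D4:**
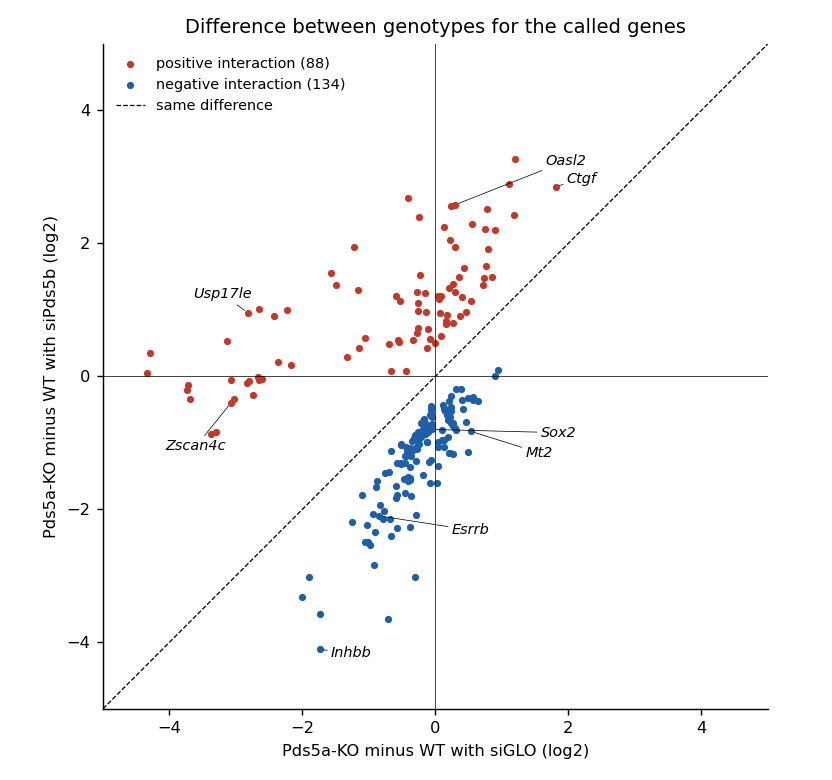
The difference between Pds5a-KO and WT on the log2 scale with siGLO (x axis) and with siPds5b (y axis) for the 88 positive and 134 negative genes, where the dashed line marks the same difference with both siRNAs. Zscan4c and Usp17le start far below WT at the left and end near the horizontal axis, while Ctgf, Esrrb and Inhbb end further from it than they began.

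The Pds5b-KO siGLO libraries, which have PDS5A and a lasting loss of Pds5b (278, 312 and 238 normalized counts), give a reference for how the same genes stood without PDS5B. Esrrb was at 7257, 6506 and 5989 and Klf4 at 2019, 1804 and 1669, both below all WT libraries and above Pds5a-KO siPds5b. Ctgf was at 2411, 2484 and 2378, above all WT libraries. These 3 genes thus lay outside the WT range in the Pds5b-KO clone, while siPds5b, which left 35.0% of the transcript in WT, moved none of them past the threshold there. Oasl2 was at 62.3, 75.8 and 72.8, below all WT libraries, Gli1 at 496, 617 and 619 and Sox2 at 8177, 8253 and 7775, none of them near the treated knockout.

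The knockout treated with siStag1 or siStag2 gives the other reference. Esrrb was at 3730, 4201 and 4718 with siStag1 and at 3488, 3578 and 3776 with siStag2, between the siGLO and siPds5b libraries of the knockout. Gli1 was at 482, 591 and 634 with siStag1 and at 283, 250 and 317 with siStag2, above the 65.3 to 106 seen with siPds5b. Oasl2 reached 450, 501 and 445 with siStag2 and 249, 288 and 283 with siStag1, below the 893 to 1010 seen with siPds5b. All these comparisons share the Pds5a-KO siGLO libraries, and the differences between siRNAs were not tested.

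**Figure D5:**
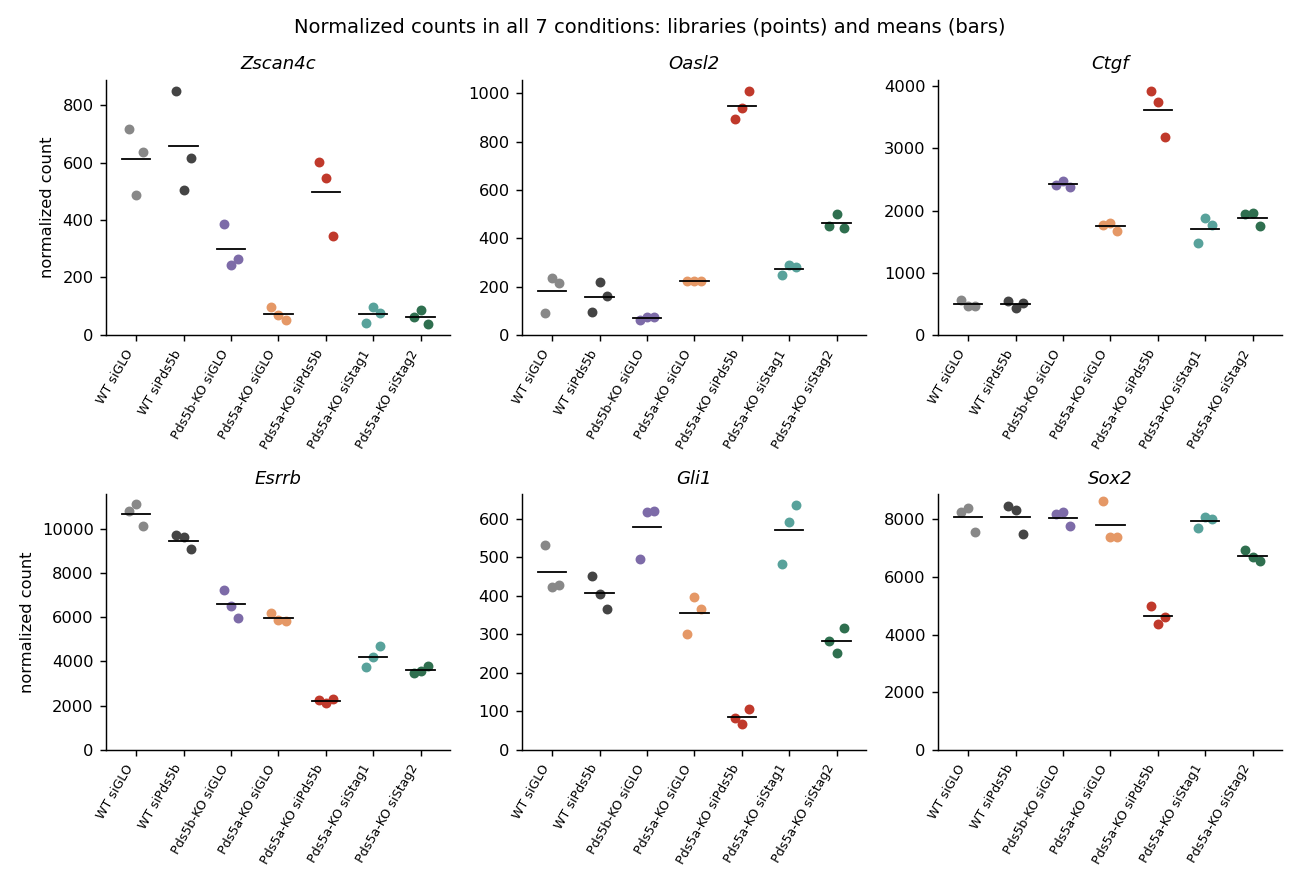
Normalized counts of 6 genes in all 7 conditions, with 1 point for each of the 3 libraries and a bar at the mean. For Oasl2, Ctgf, Esrrb, Gli1 and Sox2 the Pds5a-KO siPds5b libraries lie beyond those of every other condition, while for Zscan4c 2 of the 3 lie in the WT range, 1 lies below it, and all 3 lie above the other Pds5a-KO libraries.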

How the data were processed

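RNA was measured by poly-A RNA-seq in 21 libraries (7 groups of 3). The authors aligned paired reads to mm10 with STAR and deposited raw gene counts per library; the counting tool, annotation and strand setting are not given in the sources used here. Groups come from the sample titles.

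Counts as deposited were tested with edgeR 4.0.16 (R 4.3.3): TMM, filterByExpr, robust quasi-likelihood fit with a mean for each of 7 groups, Benjamini-Hochberg over 14963 genes, called at an adjusted p under 0.01. SE is the log2 value divided by the square root of F. The 95% intervals are the log2 value plus or minus a t quantile times the SE, and so include the spread between replicate libraries. Totals were 17434084 to 23989198. Alternatives were DESeq2 1.42.0, other scalings, filters and thresholds, replicate blocks and libraries left out; 2 of them, the block within each genotype and leaving out both Pds5a-KO libraries numbered 1, were chosen after seeing the data. Samples sharing a number within a genotype deviated together (correlation 0.375 to 0.724 over 6 pairs and 11103 genes), those sharing it across genotypes less clearly (-0.141 to 0.348, median 0.131, over 12 pairs, with all 4 pairs of number 1 between 0.213 and 0.348), so the numbers pair samples within a genotype and not, by a minimum of 0.1 in every pair, across genotypes.

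Genes were named by rule: called, mean log2 CPM of at least 1, the 12 largest and the 5 smallest p in each direction, called members of the gene lists, and the cohesin list. The comparison, lists and rule were chosen with earlier results of these data known; Tgtp1, Gbp4, Zbp1, Cd274, Parp14, Slfn9, Trim12a, Trim30a, Calcr, Gli2, Ptch1, Smo, Gas1, Gja1, metallothioneins, Tdh, Ufc1, Skp2 and Lyz2 were chosen after their values were seen. By current or older symbols, 99.3% of tested genes matched the GRCm38 annotation, and 157 of the 222 called genes had a RefSeq promoter. Some genes are not reported here. A self-test on simulated data preceded the fits.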

Additional observations from a re-analysis of the deposited data

Results flagged for a closer look

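The difference of the siPds5b effect between Pds5a-KO and WT was itself tested and passed for 222 genes, and the named ones are given here as log2 interactions. The positive ones were Usp17le 3.78, Usp17lc 3.66, Usp17lb 3.14, Usp17la 2.86, Zscan4d 2.73, Zscan4e 2.72, Zscan4f 2.69, Zscan4c 2.67, Gm2016 2.66, Gm13078 2.61, Gm2022 2.58, Gm8994 2.57, Gm5662 2.47, Sepp1 1.64, Lonrf3 1.57 and Ctgf 1.04. The negative ones were Sgk2 -2.71, Inhbb -2.38, Prdm14 -1.91, Gli1 -1.89, Accsl -1.83, Nr0b1 -1.80, Gm7325 -1.73, Fgf17 -1.70, 8430410A17Rik -1.62, Gna14 -1.62, Lrrc34 -1.54, Adap1 -1.52, Sept1 -1.48, Esrrb -1.26 and Klf4 -1.21.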

How the results depend on the processing

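All 222 interactions kept their sign under every alternative that measured them (204 of them under a minimum of 10 counts in each library). The count, 222 (88 positive, 134 negative), was 134 (40 positive) with only the 12 libraries in the fit, 441 (174 and 267) with DESeq2, 389 (171 and 218) with the replicate block, 704 (332 and 372) with the replicate block within each genotype, 132 (47 and 85) without both Pds5a-KO libraries numbered 1, 578 (259 and 319) at an adjusted p under 0.05 and 118 with a log2 value of at least 1 (54 negative). Leaving out 1 library gave 121 to 232 (positive 47 to 95, negative 73 to 137), and the drop exceeded 1.5 times without WT siGLO 2 (137) or 3 (121), WT siPds5b 1 (136), Pds5a-KO siGLO 2 (143) and Pds5a-KO siPds5b 2 (122). The siPds5b effect in Pds5a-KO, 1136 genes, was called for 2123 (1134 higher, 989 lower) with the block within each genotype, 550 (276 and 274) without both libraries numbered 1, 2353 (1247 and 1106) at 0.05, 377 (282 and 95) with a log2 value of at least 1, and 689 to 1155 with 1 library left out (344 to 630 and 333 to 526, lowest totals without Pds5a-KO siGLO 2, 689, and Pds5a-KO siPds5b 2, 710). In WT, 1 gene was called, against 5 lower with DESeq2, 2 with no filter, 3 with the replicate block, 7 with the block within each genotype (2 higher, 5 lower), 3 without both libraries numbered 1, 4 at 0.05, and 1 to 3 with 1 library left out. The Pds5a difference with siGLO was -0.35 without both libraries numbered 1 (adjusted p = 0.0052) and -0.34 to -0.17 with 1 library left out. The Pds5b interaction ran from -0.013 (without Pds5a-KO siPds5b 1, where it turned sign) to 0.26. Of 1085 values for 52 named genes, 943 stayed past the threshold and 142 did not, with 0 reversed; none was lost under DESeq2, without a filter or under either block, and U2af1 (15 alternatives), Rrm2 (14), Tcl1 (14), Mybl2 (13) and Zfp352 (13) were lost most often. The cause of these differences was not tested. Counts of few reads limit Tdpoz3, Zfp352 and Trim30a.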

Other observations

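Ufc1 and Skp2, chosen after their values were seen, had lower counts in every siPds5b library than in every siGLO library of the same genotype, while the Pds5b-KO libraries stayed near WT siGLO. Ufc1, the E2 enzyme of the UFM1 pathway, had 1066, 1158 and 1069 normalized counts in WT siGLO, 804, 774 and 715 in WT siPds5b, 1204, 1291 and 1283 in Pds5a-KO siGLO, 850, 980 and 892 in Pds5a-KO siPds5b and 1069, 1114 and 1274 in Pds5b-KO siGLO. In WT its adjusted p was 0.0124 by edgeR and 6.99e-06 by DESeq2. Skp2, an F-box protein that directs the degradation of cell cycle inhibitors, had 1926, 1972 and 1979 in WT siGLO, 1347, 1519 and 1412 in WT siPds5b, 1988, 1712 and 1603 in Pds5a-KO siGLO, 1177, 1004 and 999 in Pds5a-KO siPds5b and 2007, 1844 and 1962 in Pds5b-KO siGLO.

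Lyz2, a lysozyme gene of macrophages and monocytes, was present or near absent library by library. It had 57.6, 86.7 and 47.1 in WT siGLO, 0, 1.12 and 0 in WT siPds5b, 68.1, 63.6 and 106 in Pds5a-KO siGLO, 41.7, 0 and 0 in Pds5a-KO siPds5b and 1.06, 136 and 186 in Pds5b-KO siGLO, and it was called in neither genotype nor for the interaction.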
